A study of Homo sapiens with 24 samples.

Results

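TR4 peaks were compared between 2 edited clones of HUDEP-2, an immortalised human red cell precursor line that makes mainly adult globin. The clones were T, in which the nuclear receptor TR4 (gene NR2C2) ends in 3FLAG and 3MYC epitopes, and TB, which carries the same TR4 edit and, in addition, BCL11A ending in 3HA and 3MYC epitopes. Clone B, with the BCL11A edit alone, served only as a further reference. Each clone was a single edited clone grown for expansion with no further treatment, so an effect of the BCL11A edit and any other difference between clones cannot be told apart. The 6 libraries made with an antibody against TR4, 3 of clone T and 3 of clone TB, were taken from a series of 24 libraries. The other 18 used MYC, HA or IgG antibodies. Whether the 3 libraries of each group were separate cultures is not in the labels. The p-values therefore measure the spread between libraries, which may be technical.

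The assay was CUT&RUN, in which an antibody draws a nuclease to chromatin and the released fragments are sequenced. Peaks from the 24 lists that overlapped by 1 base or more were joined into 79570 regions, and the 7349 that held an IgG peak were set aside. Of the rest, 20543 held a TR4 peak. A region of a clone had a peak in at least 2 of its 3 TR4 libraries, and a region of one clone alone had none in the 3 TR4 libraries of the other clone. By that rule, 899 regions were of clone T alone, 789 were of clone TB alone and 6304 were shared.

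TR4 is an orphan nuclear receptor that binds DNA as a homodimer or with its close relative TR2 (gene NR2C1). The dimer recognises direct repeats of the nuclear receptor half-site AGGTCA, and in red cell precursors it is known as a repressor of the embryonic and fetal globin genes. BCL11A is a zinc finger repressor of the fetal globin genes and works with the NuRD chromatin remodelling complex. The study set out to compare where the 2 repressors bind. The pair of clones examined here shows how far TR4 peaks repeat when the same tagged TR4 is read in a clone that also carries the BCL11A tag.

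The promoters below are those that some of the regions described later touch. A printed stretch can lie partly outside its region, as at NOVA1 (144 of 250 bases inside) and SOX6 (170 of 250). The first group lies under the shared regions that rank highest by fold within their lists, the next under regions of clone T alone, and the next under regions of clone TB alone. NR2C2, the gene of TR4 itself, and UROD, which has 1 region of each kind, close the list. The clone T region of UROD begins after the start and is not in the printed bases. Each line gives the 250 bases before the start site, 5′ to 3′ on the gene's strand, from RefSeq on GRCh38.p14. Capitals mark the half-site AGGTCA, the ETS core CCGGAAG and the CCAAT box, each on either strand.
SMARCD2: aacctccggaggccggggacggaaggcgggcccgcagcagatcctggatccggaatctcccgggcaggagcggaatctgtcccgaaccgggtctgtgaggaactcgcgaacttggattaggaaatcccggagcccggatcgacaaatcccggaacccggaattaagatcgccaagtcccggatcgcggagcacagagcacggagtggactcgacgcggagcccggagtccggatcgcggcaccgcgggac
BRD8: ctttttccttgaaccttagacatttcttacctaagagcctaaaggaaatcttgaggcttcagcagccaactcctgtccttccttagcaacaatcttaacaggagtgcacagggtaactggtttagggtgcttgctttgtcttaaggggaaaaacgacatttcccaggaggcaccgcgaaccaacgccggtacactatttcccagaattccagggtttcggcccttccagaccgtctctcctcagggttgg
KIF20A: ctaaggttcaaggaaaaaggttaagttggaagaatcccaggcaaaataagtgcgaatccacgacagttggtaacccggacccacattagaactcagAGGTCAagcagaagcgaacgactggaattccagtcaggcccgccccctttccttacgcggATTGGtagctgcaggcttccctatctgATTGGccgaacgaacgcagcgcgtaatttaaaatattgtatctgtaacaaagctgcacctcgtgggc
PTAR1: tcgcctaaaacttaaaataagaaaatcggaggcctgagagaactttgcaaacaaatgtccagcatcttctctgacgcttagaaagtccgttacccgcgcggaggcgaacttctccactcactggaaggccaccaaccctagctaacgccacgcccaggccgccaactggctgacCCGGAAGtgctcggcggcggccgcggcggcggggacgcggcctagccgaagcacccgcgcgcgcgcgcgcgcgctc
ZNF141: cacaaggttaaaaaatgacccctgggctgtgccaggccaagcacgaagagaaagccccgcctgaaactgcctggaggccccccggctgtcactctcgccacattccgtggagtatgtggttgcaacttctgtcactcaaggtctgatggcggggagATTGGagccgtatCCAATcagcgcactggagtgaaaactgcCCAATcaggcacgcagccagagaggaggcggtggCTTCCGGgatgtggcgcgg
CCDC112: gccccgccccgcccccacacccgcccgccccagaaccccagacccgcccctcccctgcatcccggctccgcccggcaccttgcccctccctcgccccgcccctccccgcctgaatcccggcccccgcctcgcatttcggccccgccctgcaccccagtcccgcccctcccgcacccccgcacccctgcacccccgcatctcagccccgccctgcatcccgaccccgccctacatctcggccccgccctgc
SOX6: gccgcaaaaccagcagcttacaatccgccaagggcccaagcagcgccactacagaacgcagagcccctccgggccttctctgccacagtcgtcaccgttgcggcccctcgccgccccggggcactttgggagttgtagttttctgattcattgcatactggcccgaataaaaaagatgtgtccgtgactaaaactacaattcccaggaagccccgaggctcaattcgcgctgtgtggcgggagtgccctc
NOVA1: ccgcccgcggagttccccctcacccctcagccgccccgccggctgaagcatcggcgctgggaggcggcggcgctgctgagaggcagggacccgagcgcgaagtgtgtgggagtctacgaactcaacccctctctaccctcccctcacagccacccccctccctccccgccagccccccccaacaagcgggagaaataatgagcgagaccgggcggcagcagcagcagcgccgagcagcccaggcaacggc
DNAJC4: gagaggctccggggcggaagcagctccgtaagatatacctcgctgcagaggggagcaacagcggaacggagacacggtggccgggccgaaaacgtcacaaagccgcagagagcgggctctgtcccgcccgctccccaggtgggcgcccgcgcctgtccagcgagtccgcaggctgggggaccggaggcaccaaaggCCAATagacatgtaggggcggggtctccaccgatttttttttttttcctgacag
NR1D1: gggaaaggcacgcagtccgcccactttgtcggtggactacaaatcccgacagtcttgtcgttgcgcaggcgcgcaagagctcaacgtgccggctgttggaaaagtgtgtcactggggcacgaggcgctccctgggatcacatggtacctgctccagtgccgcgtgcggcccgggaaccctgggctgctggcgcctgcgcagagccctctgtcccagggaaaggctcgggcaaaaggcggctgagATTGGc
NR2C2: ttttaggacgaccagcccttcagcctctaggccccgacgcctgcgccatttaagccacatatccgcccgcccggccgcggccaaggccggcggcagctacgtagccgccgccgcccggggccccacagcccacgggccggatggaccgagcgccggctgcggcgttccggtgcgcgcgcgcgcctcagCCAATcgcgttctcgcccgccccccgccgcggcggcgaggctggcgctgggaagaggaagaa
UROD: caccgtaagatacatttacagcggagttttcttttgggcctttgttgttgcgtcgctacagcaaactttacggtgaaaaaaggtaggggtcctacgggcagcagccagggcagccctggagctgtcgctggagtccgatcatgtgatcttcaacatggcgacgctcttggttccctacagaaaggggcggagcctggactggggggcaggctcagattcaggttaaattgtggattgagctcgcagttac

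The shared promoters lay at chr17:63842686-63842935 (SMARCD2, minus strand), chr5:138178631-138178880 (BRD8, minus), chr5:138178862-138179111 (KIF20A, plus) and chr9:69760012-69760261 (PTAR1, minus). BRD8 and KIF20A are transcribed away from each other, and 1 region covered both promoters. SMARCD2 encodes a subunit of the SWI/SNF remodelling complex, BRD8 a subunit of a histone acetyltransferase complex and KIF20A a mitotic kinesin. Those of clone T alone lay at chr4:337564-337813 (ZNF141, plus), chr5:115296655-115296904 (CCDC112, minus) and chr11:16738478-16738727 (SOX6, minus). Those of clone TB alone lay at chr14:26598034-26598283 (NOVA1, minus), chr11:64230182-64230431 (DNAJC4, plus) and chr17:40100590-40100839 (NR1D1, minus). NR2C2 lay at chr3:14947333-14947582 (plus) and UROD at chr1:45012004-45012253 (plus). The SMARCD2 region had TR4 folds, the authors' enrichment values, of 346, 496 and 223 in clone T and 272, 264 and 248 in clone TB. The region over BRD8 and KIF20A had 345, 445 and 164, and 267, 245 and 180. The PTAR1 region had 304, 387 and 116, and 248, 281 and 180, so all 6 libraries were high at these 3 regions. Of the 12 sequences, KIF20A alone held AGGTCA, and PTAR1 and ZNF141 held CCGGAAG.

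Over all 15812 promoter entries, windows from 250 bases before to 50 after the start held AGGTCA on either strand in 11.7% of cases. The share was 12.1% of the 3402 promoters that touched a shared region, 6.80% of the 147 with a region of clone T alone and 4.15% of the 265 with a region of clone TB alone. The direct repeat GGTCANNGGTCA, in which N is any base, was rare, in 0.108% of all promoters and 0.294% of those with a shared region. CCGGAAG was in 14.2% of all promoters, 29.7% with a shared region, 23.8% with a clone T region and 20.8% with a clone TB region. CCAAT was in 36.3%, 48.3%, 42.9% and 47.2%, in the same order. GATAA, the letters that GATA factors bind, was in 18.2%, 10.8%, 12.2% and 16.2%. A match is a description of these letters in this window and not a binding site.

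The TR4 lists held 8832, 14924 and 5602 peaks in clone T and 11488, 11510 and 6944 in clone TB. The groups overlapped, with 9786 ± 4734 (SD, n = 3) in T and 9981 ± 2630 (n = 3) in TB (exact permutation test, two-sided, p = 1). Library 3 had the shortest TR4 list of each clone, and also the shortest list of each MYC and HA group. Without read counts the depth is unknown, and the length of a list stands nearest to it. With 3 libraries against 3, no exact two-sided test here can go below p = 0.1.

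TR4 peaks of the 2 clones covered largely the same places. The 6304 shared regions were 78.7% of the 8008 regions of clone T and 74.5% of the 8459 of clone TB. Regions of T alone were 11.2% of the T regions and 4.38% of all regions with a TR4 peak. Regions of TB alone were 9.33% of the TB regions and 3.84% of all. A further 805 T regions and 1366 TB regions had a peak in 1 library of the other clone and so belonged to neither class.

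Libraries did not separate by clone in the Jaccard index of their regions, but they did in the ranks of the folds. The mean Jaccard index (shared regions over all regions of a pair of libraries) was 0.448 within clones and 0.433 between them (exact permutation test, one-sided, p = 0.4). It was 0.410 within T and 0.486 within TB. Lists of unlike length cannot reach a high index. The lowest, 0.279, was between library 2 of T, with 14924 peaks, and library 3 of T, with 5602. The index therefore cannot tell a difference in regions from one in list length. In the 3185 regions with a peak in all 6 libraries, the median distance between summits, the highest points of the peaks, was 14.8 bases within clones and 14.6 between (one-sided exact p = 0.6). Over the same 3185 regions, Spearman's rho of the folds was 0.799 to 0.910 for the 6 pairs of libraries within a clone and 0.618 to 0.736 for the 9 pairs between clones. These are correlations across regions that share libraries, given as a description, and each pair within a clone was above each pair between clones.

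Most regions of one clone alone rested on libraries 1 and 2 of that clone. Of the T regions, 761 had peaks in 2 libraries and 138 in all 3, and 646 of the 899 (71.9%) were in libraries 1 and 2 only. Of the TB regions, 626 had peaks in 2 libraries and 163 in all 3, and 516 of the 789 (65.4%) were in libraries 1 and 2 only. Those are also the longer lists of each clone. The count of T regions fell to 155 without library 2 of T and to 236 without library 1. The count of TB regions was 225 without library 1 of TB, 211 without library 2 of TB and 2074 without library 2 of T.

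Regions of one clone alone were narrower, weaker and farther from genes than shared regions. Their median width was 240 bases in T and 251 in TB, against 370 for shared regions. Their peaks had median folds of 7.79, 8.40 and 6.46 in the T libraries and 7.17, 7.17 and 6.76 in the TB libraries, while peaks in shared regions had medians from 9.66 to 15.4. No fold was tested between lists. A region spans the peaks of all lists that touch it, and a weak peak is more easily missing from a list. The rule thus tends to set these widths and folds, and nothing is read from them. A region was counted at a gene end when it lay within 1 kb of the start or end of a protein-coding gene record. Such regions were 66.3% of the shared, 34.8% (313) of the T and 46.1% (364) of the TB regions, against 43.3% of all regions with a TR4 peak. The peak lists themselves had 54.9% ± 3.93 of peaks at gene ends in T and 56.3% ± 1.25 in TB (n = 3 each, exact permutation p = 0.6). Of the regions of one clone alone, 419 T regions (46.6%) and 454 TB regions (57.5%) were over 50 kb from the nearest shared region. That share was not taken over all regions with a TR4 peak, so nothing is read from it.

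MYC and HA peaks did not enter the rule for regions of T alone and TB alone. They did help to set the bounds of the regions, because the peaks of all lists were joined. With only the 6 TR4 and 3 IgG lists joined, 942 regions were of T alone and 830 of TB alone. With all lists joined there were 899 and 789. The MYC and HA shares below are therefore not fully separate from the choice of regions. MYC marks TR4 in clone T, but TR4 and BCL11A together in clone TB, and HA marks BCL11A alone. At the regions of clone TB alone, MYC peaks were found in 23.4%, 28.0% and 2.15% of regions in the 3 clone T libraries and in 88.5%, 89.4% and 79.7% in the 3 clone TB libraries. Each clone TB library was above each clone T library, with means of 85.8% ± 5.32 and 17.9% ± 13.8 (n = 3 each, exact permutation p = 0.1, the smallest possible). At the regions of clone T alone the groups overlapped, with 73.7%, 79.4% and 17.5% in clone T and 67.1%, 63.4% and 50.3% in clone TB (means 56.9% ± 34.3 and 60.3% ± 8.83, exact permutation p = 1). Library 3 of the clone T MYC group, with 4621 peaks, was far below the other 2, which had 13205 and 14263. The clone TB MYC lists were longer, at 20928 to 25738 peaks, and their part in these shares was not tested beyond the equal-length values given next.

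With each of the 6 MYC lists cut to its 4621 strongest peaks and the same regions, the share of T regions with a MYC peak became 19.6% in clone T and 4.52% in clone TB, so the sign turned, with no overlap (exact permutation p = 0.1). The TB regions kept their direction, with a difference of -12.8 percentage points. At shared regions, MYC peaks were in 93.2%, 94.9% and 51.2% for clone T and 98.5%, 98.1% and 95.2% for clone TB.

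The 2 kinds of regions were also compared inside each MYC library. The share of T regions minus the share of TB regions was 50.3, 51.4 and 15.3 percentage points in the clone T libraries. It was -21.4, -25.9 and -29.4 in the clone TB libraries. Every clone T library thus had MYC peaks more often at the regions that the TR4 antibody gave to T alone, and every clone TB library at those of TB alone. The means of 39.0 ± 20.5 and -25.6 ± 4.04 differed by 64.6 points (n = 3 each, exact permutation p = 0.1). Of the 8 comparisons made with MYC and HA, the lowest Benjamini-Hochberg adjusted p was 0.2.

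**Figure D1:**
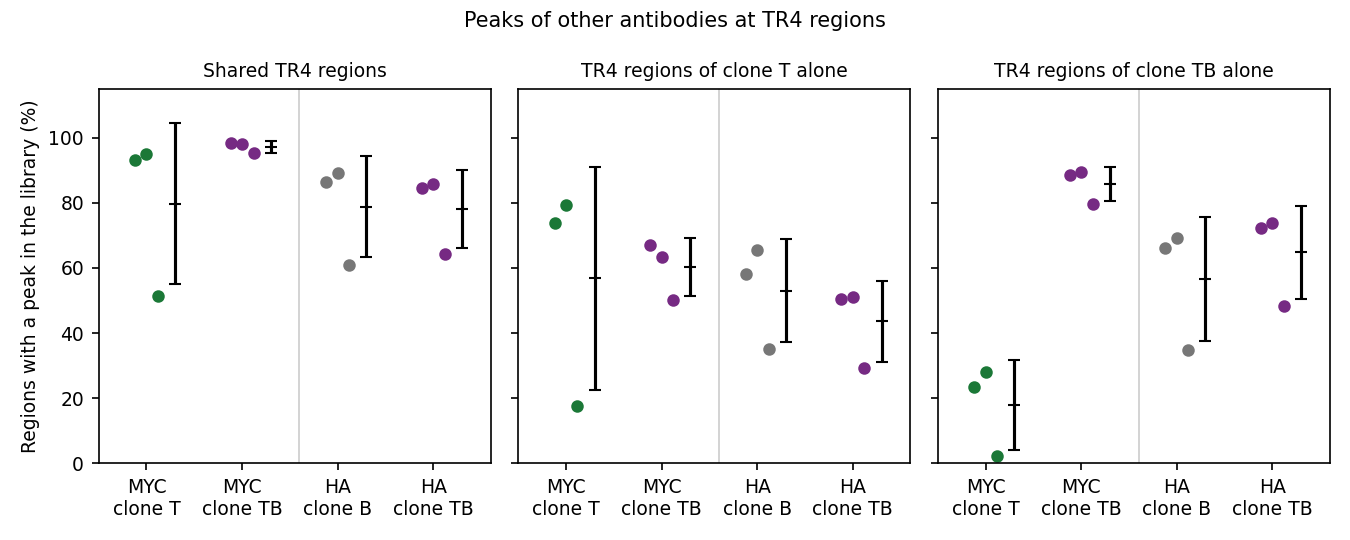
Percent of shared TR4 regions, regions of clone T alone and regions of clone TB alone that hold a peak in each MYC or HA library; points are libraries and bars show the mean ± SD of 3. At regions of clone TB alone the MYC libraries of clone T sit at 2.15% to 28.0% and those of clone TB at 79.7% to 89.4%.

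BCL11A, read with HA, was found at both kinds of regions and in both clones that carry its tag. At T regions HA peaks were in 58.2%, 65.5% and 35.2% for clone B and 50.4%, 51.2% and 29.3% for clone TB (exact permutation p = 0.5, groups overlapping). At TB regions they were in 66.0%, 69.1% and 34.7% for clone B and 72.2%, 73.9% and 48.2% for clone TB (exact permutation p = 0.5, groups overlapping). Within each clone TB library HA was more frequent at TB than at T regions, by -21.9, -22.7 and -18.9 points as T minus TB. In clone B the same difference was -7.86, -3.56 and 0.42 points. The 2 sets did not overlap, with means of -3.66 ± 4.14 in B and -21.2 ± 2.00 in TB, a difference of 17.5 points (exact permutation p = 0.1). So clone TB had HA peaks more often at its own TR4 regions than clone B did, relative to the T regions.

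Set together by clone, 606 T regions (67.4%) were also MYC regions of clone T, but 559 (62.2%) were MYC regions of clone TB too. Of the TB regions, 703 (89.1%) were MYC regions of clone TB and only 124 (15.7%) were MYC regions of clone T. HA regions of clone TB covered 409 (45.5%) of the T regions and 535 (67.8%) of the TB regions. A TR4 region with no peak in any of the 15 MYC and HA libraries was rare, with 19 (2.11%) in T and 24 (3.04%) in TB.

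A stricter set was bound in one clone by both antibodies, with a MYC region of its own clone and no MYC peak in the other. It held 130 of the 899 T regions (14.5%), where 1.93% of all regions with a TR4 peak had that MYC pattern. It held 426 of the 789 TB regions (54.0%), where 13.1% of all had the matching pattern. With the 12 TR4 and MYC lists cut to equal length the order turned, with 234 regions for T and 153 for TB. An HA region of clone TB lay at 5 (3.85%) of the 130 and at 317 (74.4%) of the 426. MYC in clone TB also reads BCL11A, so choosing the first set for no MYC peak there and the second for a MYC region there tends to set these HA shares, and nothing is read from them. HA was absent from all 3 clone TB libraries at 113 of the 130 and at 47 of the 426. A MYC peak in clone TB does not by itself show TR4.

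Peaks in all 6 TR4 and MYC libraries of one clone and in 0 of 6 of the other were found at 14 regions for T and at 82 for TB. In a Fisher exact test by region over these 12 libraries, 0 of 14124 tested regions passed a Benjamini-Hochberg adjusted p of 0.05 in either direction (0% higher in T and 0% higher in TB). At an unadjusted p of 0.05, 42 were higher in T and 458 in TB. The 12 libraries include MYC of clone TB, which also reads BCL11A. Its lists held 20928 to 25738 peaks, against 4621 to 14263 for MYC of clone T. The larger counts for TB, here and at 6 against 0, are therefore not read as more TR4 binding. The lowest adjusted p was 0.318, for 6 against 0, whose unadjusted p is 0.00216. An adjusted p of 0.05 would have needed 612 regions at 6 against 0. The single regions below are therefore described by their values and not called.

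The region of clone TB alone with the highest folds lay at NOVA1, which encodes a neuronal splicing regulator that binds RNA. It spanned chr14:26598140-26598739 and ended 107 bases before the start site. TR4 folds were 71.7, 68.8 and 76.6 in clone TB, with no TR4 peak in clone T. MYC folds there were 126, 129 and 107 in clone TB, with no MYC peak in clone T. All 6 clone TB libraries were high and none of the 6 clone T libraries had a peak. HA had peaks in 2 of 3 clone TB libraries and in none of clone B.

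LIN28B carried 3 regions of clone TB alone. It encodes an RNA-binding protein of fetal-type blood progenitors that blocks let-7 microRNAs, and it is known for raising fetal globin when expressed in adult erythroid cells. The first region, chr6:104941182-104941627, began 217 bases after the start site and had TR4 folds of 24.01, 22.8 and 21.8 and MYC folds of 10.4, 12.1 and 11.8 in clone TB. The second, chr6:104954513-104954812, lay 13548 bases after the start and had TR4 folds of 16.7, 16.5 and 25.2. Its MYC folds were 24.2, 21.4 and 29.2. The third, chr6:105035372-105035565, lay 94407 bases after the start and had weaker TR4 folds of 8.41, 10.0 and 8.99. No TR4 or MYC peak of clone T lay from 20 kb before to 140 kb after the LIN28B start.

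HA separated these 3 LIN28B regions. The second had HA peaks in all 3 clone TB libraries, with folds of 12.5, 14.6 and 13.5. The other 2 had HA peaks in no clone TB library, so their peaks in clone TB were seen with TR4 and MYC antibodies but not with HA. Clone B had an HA peak at the first and second in 1 of 3 libraries each.

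**Figure D2:**
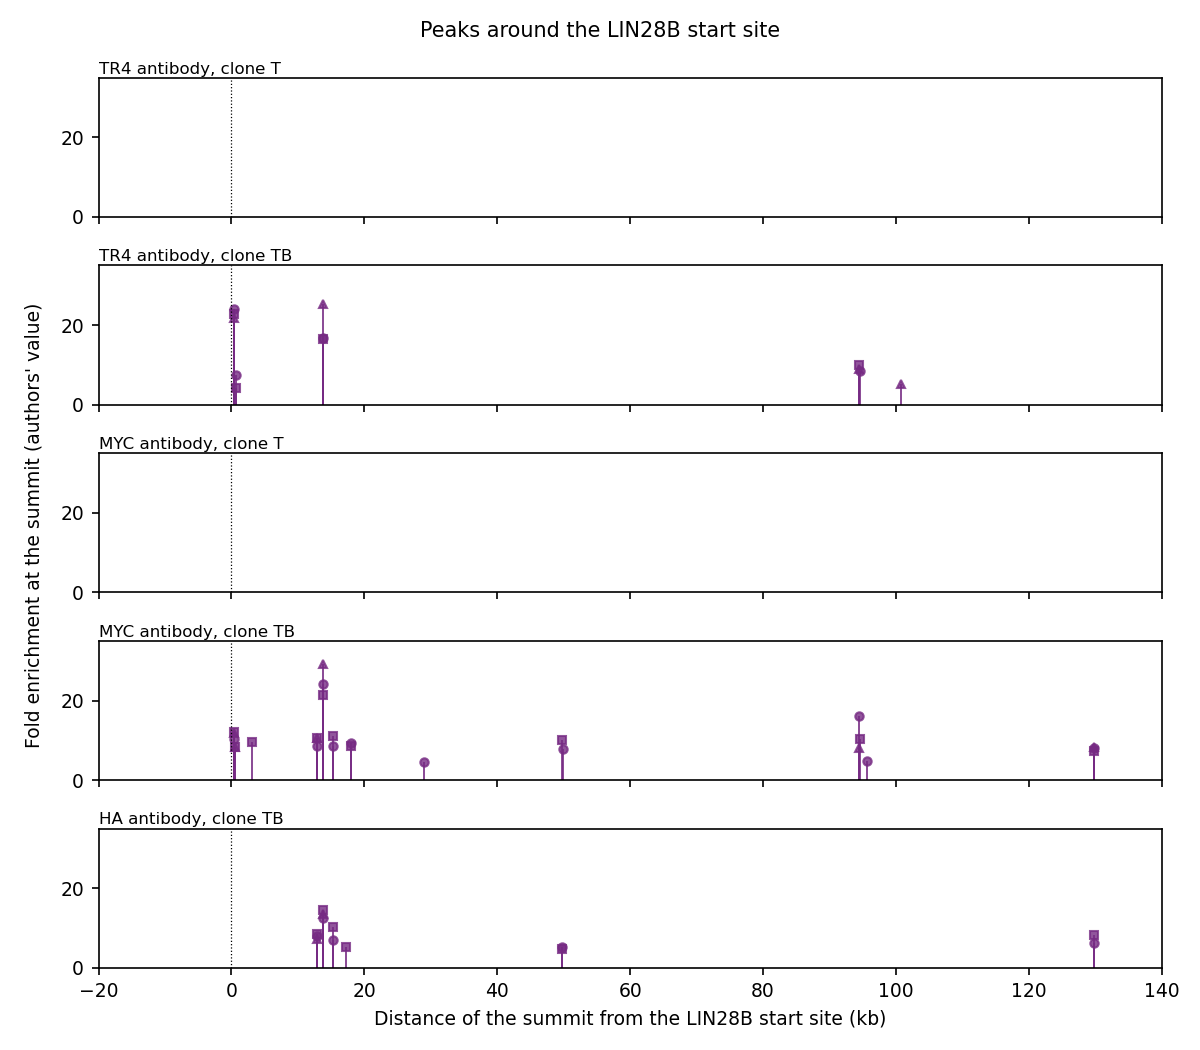
Peaks around the LIN28B start site, with the distance of each summit from the start in kb on the x axis and the authors' fold on the y axis; circles, squares and triangles are libraries 1, 2 and 3. Both clone T panels are empty, while clone TB shows TR4 peaks near the start and farther inside the gene.

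Of 30 nuclear receptor genes, 8 (26.7%) had a shared region at a gene end, near the 22.7% of all genes. NR1H3 had a T region and NR1D1 a TB region. With 1 gene for each clone, 3.33% cannot be read as above or below the 1.86% and 2.18% of all genes. A further TB region lay more than 1 kb from a gene end at NR2F2. NR2F2 encodes COUP-TFII, an orphan nuclear receptor that binds the same kind of half-site repeats as TR4. Its region, chr15:96330500-96330729, ended 1836 bases before the start and had TR4 folds of 15.2, 14.3 and 13.8 and MYC folds of 25.3, 22.6 and 25.5, with no peak in clone T. NR1D1 encodes REV-ERB alpha, a heme-binding repressor of the circadian clock. Its region, chr17:40100582-40100849, spanned the start and had lower TR4 folds of 7.88, 8.45 and 6.59 and MYC folds of 14.95, 16.1 and 17.7, again with no MYC peak in clone T. HA was present there in all 3 clone TB and in 2 clone B libraries.

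Some regions of clone TB alone had no HA peak at all. CHST8, a sulfotransferase gene, held chr19:33660525-33660711 inside its record, 38572 bases after the start, with TR4 folds of 40.8, 36.0 and 19.9 and MYC folds of 22.02, 24.4 and 14.1. CSRNP3, a gene of a nuclear protein expressed in brain, held chr2:165574147-165574409 with TR4 folds of 9.98, 22.2 and 38.3. These 2 showed TR4 and MYC peaks in all clone TB libraries and no HA peak in either clone. BRPF3, a subunit of histone acetyltransferase complexes, was the opposite case. Its region at chr6:36197167-36197440 had TR4 folds of 27.3, 14.7 and 14.5 and HA peaks in all 3 libraries of both clones.

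The run with the most regions of clone TB alone lay over SNAR genes, which encode small noncoding RNAs in tandem arrays on chromosome 19. The 28 SNAR records in the gene table are 119 to 128 bases long, and 26 are on chromosome 19. A region of TB alone lay within 500 bases of 9 of them, a shared region of 4 and a region of T alone of 0. A TR4 peak lay there in at least 1 clone T library at 14 records and in at least 1 clone TB library at 24. Of the 9, all had peaks in 2 TR4 libraries of clone TB and in 0 of clone T. IgG had a peak at 0 of the 28.

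One array, chr19:50090832-50139398, held 7 regions of TB alone within 48567 bases and no shared region. MYC peaks filled 20 of the 21 region-by-library cells in clone TB and 2 of 21 in clone T, and HA filled 12 in clone TB and 6 in clone B. A second array, chr19:47918259-47934228, held 3 such regions, with MYC in 9 of 9 for clone TB and 4 for clone T. At all 10 of these regions the TR4 peaks were in libraries 1 and 2 of clone TB only. Other SNAR copies in both arrays had a TR4 peak in 1 clone T library, SNAR-C2, SNAR-A5 and SNAR-A6 among them. The copies are nearly identical, so which copy a peak belongs to is uncertain, and how reads that map to several copies were handled is not stated in any source at hand. The gene table types SNAR records as snRNA. The 126 other snRNA records had a shared region within 1 kb in 24 cases (19.05%), a T region in 0 and a TB region in 5 (3.97%). Records typed as tRNA had a T region in 8 of 429 (1.86%) and a TB region in 4 (0.932%).

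**Figure D3:**
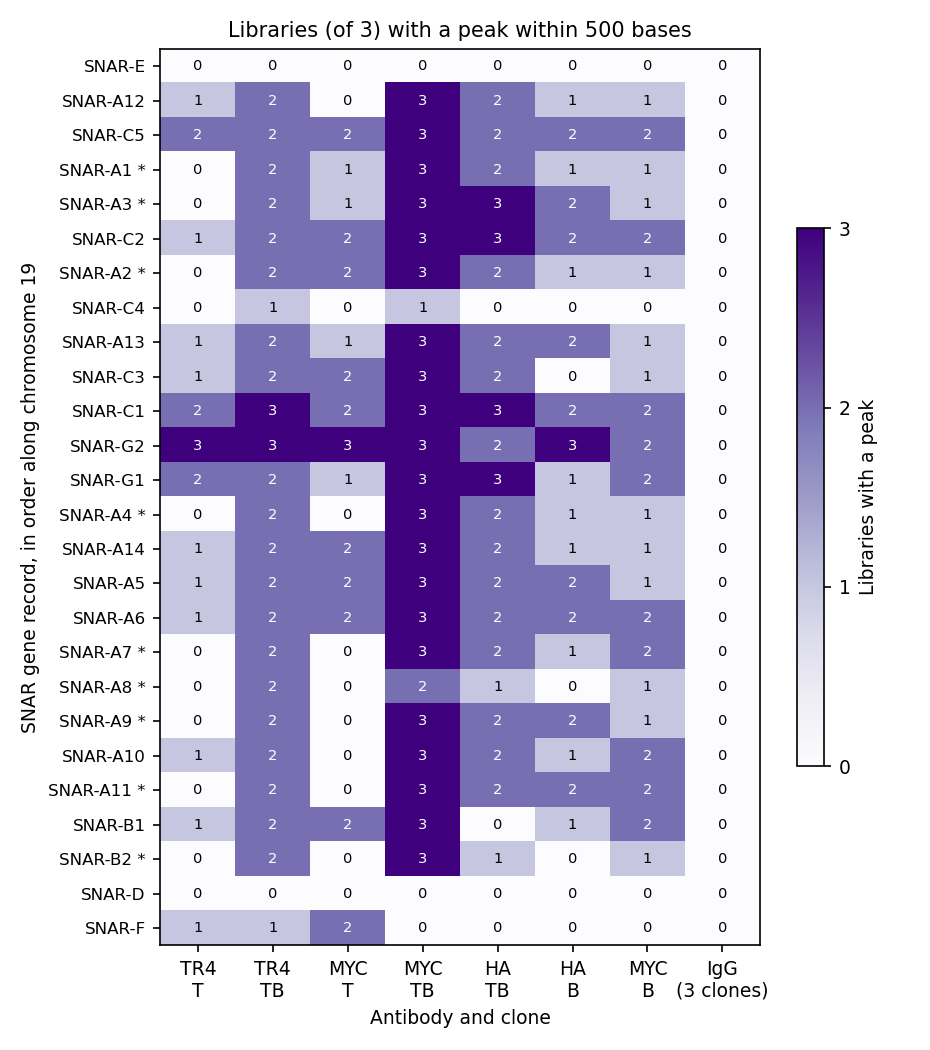
Number of libraries, of 3, with a peak within 500 bases of each SNAR record on chromosome 19, by antibody and clone; an asterisk marks the 9 records with a region of clone TB alone. The MYC column of clone TB shows 3 at most records while the TR4 column of clone T shows 0 at all 9 marked ones.

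Among regions of clone T alone, the highest folds lay near TINAGL1, which encodes a secreted matrix protein. The region, chr1:31573910-31574289, ended 2226 bases before the record and had TR4 folds of 27.6, 31.5 and 21.1 and MYC folds of 42.3, 42.4 and 24.3 in clone T. MYC also had peaks in 2 clone TB libraries, so the region was of clone T alone by TR4 and not by MYC. MYC in clone TB also reads BCL11A, and HA had peaks there in 2 libraries of clone TB and 2 of clone B. PAPSS2, an enzyme gene for sulfate donor synthesis, held a region inside its record, chr10:87701441-87701648, with TR4 folds of 20.998, 28.5 and 25.05. MYC peaks there were in 3 clone T libraries and 2 clone TB libraries, and HA peaks in 1 library of clone TB and 0 of clone B.

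A pair of zinc finger genes carried regions seen in all 6 TR4 and MYC libraries of clone T and in none of clone TB. ZNF471, of the KRAB zinc finger family of repressors, had chr19:56507615-56507845, which lay 10 bases outside its record. TR4 folds were 17.7, 27.4 and 10.3 and MYC folds 14.9, 17.7 and 5.98. ZNF610, of the same family, had chr19:52336160-52336302 inside its record, with TR4 folds of 10.8, 25.8 and 14.99 and MYC folds of 14.3, 17.7 and 8.59. At both, MYC and HA had no peak in clone TB and HA none in clone B. ZNF141 had a region over its start, chr4:337462-337854, with TR4 folds of 19.5 and 28.6 in libraries 1 and 2 and MYC folds of 17.8 and 19.8. Of the 517 genes whose symbol starts with ZNF, 15 (2.90%) had a T region at a gene end and 18 (3.48%) a TB region, against 1.86% and 2.18% of all 19974 protein-coding genes, and 164 (31.7%) had a shared region against 22.7%.

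MTA1, a core subunit of NuRD, had a region of clone T alone at chr14:105419332-105419440, which ended 387 bases before the start. TR4 folds were 24.8 and 27.8 and MYC folds 19.5 and 31.9 in libraries 1 and 2 of clone T, with no peak in clone TB from any antibody. ZBTB7A, also called LRF, encodes a further repressor of fetal globin. It had shared regions at its start and a region of clone T alone 5424 bases after it, at chr19:4061324-4061475, with TR4 folds of 11.7 and 23.6 and MYC folds of 23.1 and 19.3. CPLANE2, a ciliary gene, was nearest to chr1:16226929-16227127, which had TR4 folds of 23.3, 22.2 and 6.32 and MYC folds of 48.1, 32.8 and 10.7, with no MYC or HA peak in clone TB.

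Regions of one clone alone were spread unevenly over chromosomes. On chromosome 18 there were 21 of T alone and 4 of TB alone. The share of TR4 peaks on that chromosome was 1.57%, 1.41% and 1.33% in clone T and 1.02%, 1.08% and 1.08% in clone TB, which did not overlap (means 1.43% ± 0.12 and 1.06% ± 0.04, exact permutation p = 0.1). MYC shares also did not overlap, at 1.56% ± 0.09 and 1.13% ± 0.04. HA gave 1.22% ± 0.15 in clone TB and 1.26% ± 0.21 in clone B. On chromosome 17 the counts were 41 and 64, and TR4 shares were 5.97% ± 0.39 in T and 6.73% ± 0.19 in TB. Chromosome 8 had 45 and 26, but MYC moved the other way there, with 4.14% in T and 4.45% in TB.

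Of 23 chromosomes, 8 (34.8%) had TR4 shares that did not overlap between clones, 3 of them higher in T. MYC shares did not overlap in the same direction on 4 of the 8. The lowest adjusted p over chromosomes was 0.288 (exact permutation test with Benjamini-Hochberg adjustment), and this design could not give less than 0.1 before adjustment. In windows of 20 Mb, chromosome 8 from 120 to 140 Mb held 13 T and 1 TB regions, and the next window held 0 and 10. Chromosome 9 from 20 to 40 Mb held 1 and 14, and chromosome 10 from 20 to 40 Mb 11 and 2. Copy number of the clones was not measured here, and its part in these counts was not tested.

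**Figure D4:**
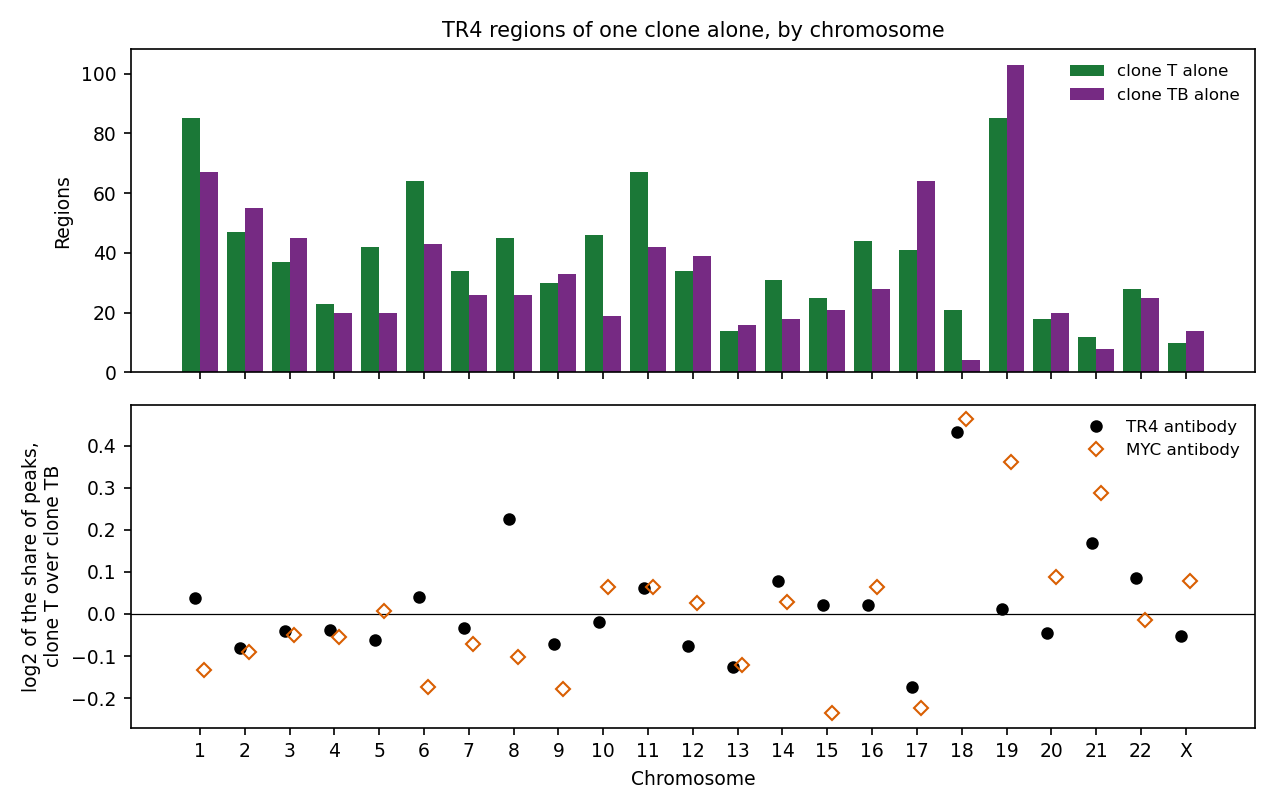
Regions of clone T alone and clone TB alone on each chromosome (bars, top) and log2 of the mean share of peaks in clone T over clone TB for TR4 and MYC (points, bottom). Chromosome 18 stands highest for both antibodies and has 21 regions of T alone against 4.

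The gene of TR4 itself, NR2C2, carried 2 shared regions whose relative heights in TR4 libraries were reversed between clones. The region over the start, chr3:14947090-14947713, had TR4 folds of 214, 269 and 139 in clone T and 60.3, 68.8 and 50.4 in clone TB. The next, chr3:14947833-14948702, began 250 bases after the start and had 23.8, 43.2 and 31.1 in clone T and 112, 113 and 55.5 in clone TB. The log2 ratio of the first to the second, taken within each library, was 3.17, 2.64 and 2.16 in clone T and -0.89, -0.72 and -0.14 in clone TB. The first region was the higher in every clone T library and the lower in every clone TB library. The means of 2.66 ± 0.51 and -0.59 ± 0.39 differed by 3.24 (n = 3 each, exact permutation p = 0.1). In MYC libraries the ratio was 2.55 ± 0.42 and -0.05 ± 0.47. It was lower in clone TB with no overlap, but its sign was positive in library 1 of clone TB (0.43) and negative in the other 2. MYC in clone TB also reads BCL11A, so that ratio is not of TR4 alone. HA folds in clone TB were 7.44 and 4.19 at the first region, in libraries 1 and 2 only. They were 18.9, 27.5 and 14.4 at the second. The part of BCL11A in the MYC ratio was not tested.

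**Figure D5:**
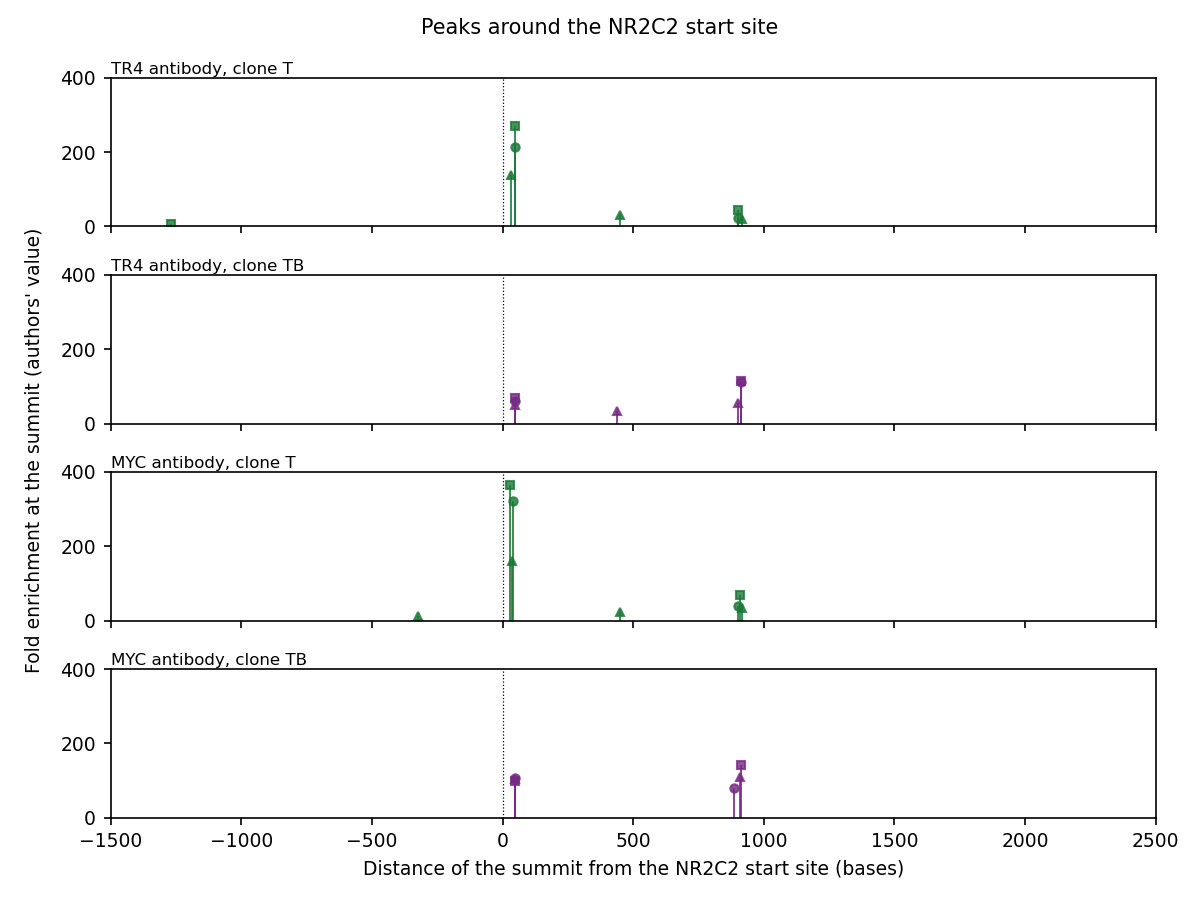
Peaks around the NR2C2 start site for TR4 and MYC in each clone, with summit distance in bases and the authors' fold; circles, squares and triangles are libraries 1, 2 and 3. In the TR4 panels the peak at the start is the higher of the pair in clone T, at 139 to 269, and the later peak is the higher in clone TB, at 55.5 to 113; in the MYC panel of clone TB the order differs between libraries.

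Other pairs of neighbours also differed between clones. Of 190 pairs of neighbouring regions, at most 1 kb apart and with peaks in all 6 TR4 libraries, the ratio did not overlap between clones in 75 (39.5%). MYC had values in all libraries for 48 of the 75, and 33 of these did not overlap in the same direction, with 0 in the opposite direction. Since MYC in clone TB also reads BCL11A, these MYC values are not a second reading of TR4 alone. The sign itself was opposite in every library of the 2 clones at 11 of the 190, NR2C2 included. The median absolute difference over the 190 was 0.54 on the log2 scale. At BSDC1 the ratio was -0.96 ± 0.27 in T and -4.46 ± 0.27 in TB, with the same sign in both. At FIZ1, a zinc finger gene, it was -0.97 ± 0.42 in T and 1.23 ± 0.57 in TB. At SYF2, a splicing factor gene, it was 0.72 ± 0.24 in T and -1.35 ± 0.44 in TB.

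NR2C1, the gene of the partner TR2, had 2 shared regions at its start, chr12:95072503-95073183 and chr12:95073265-95073838. The first had folds of 107, 138 and 55.9 in T and 76.0, 68.1 and 39.1 in TB. The second had 55.9, 181 and 71.2 in T and 92.0, 138 and 86.4 in TB, so the folds overlapped between clones. BCL11A had 1 shared region, chr2:60553538-60553787, 137 bases inside one end of its record, in 2 of 3 libraries of each clone. None of the 10 globin genes had a shared region or a region of one clone alone within 1 kb. HBA1, an alpha globin gene, had a region at chr16:176330-176873 with a TR4 peak in 1 clone T and 2 clone TB libraries, which puts it in neither class.

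Genes were then read by role, from 23 lists of 623 genes, all matched by symbol. Of these, 25 (4.01%) had a T region and 22 (3.53%) a TB region at a gene end, beside the 1.86% and 2.18% of all genes. Regulators of fetal globin had shared regions at 12 of 22 genes (54.5%), beside 22.7% of all genes. T regions lay at 4 (CHD4, IGF2BP3, MBD2 and SOX6) and TB regions at 0. NuRD and other corepressors had 13 of 25 shared (52.0%), 4 with T regions (CHD3, CHD4, MBD2 and MTA1) and 0 with TB regions. The lists share CHD4 and MBD2. A gene end can be the far end of a record, and another gene can lie there. The regions named for CHD3, NR1H3 and PSMA5 began 24232, 21600 and 28246 bases after their starts. Those named for NR1H3, PCBP1, UQCRH and MRPS18B overlapped the records of MADD, ASPRV1, LRRC41 and ATAT1. These lists were chosen with earlier results known, and the counts are a description.

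SOX6, which helps BCL11A silence fetal globin, had its T region over a start shared with C11orf58, with TR4 folds of 7.42 and 15.7 in libraries 1 and 2 and a MYC peak in 2 clone T and 1 clone TB libraries. MBD2, the methyl-DNA-binding subunit of NuRD, had folds of 10.8, 12.9 and 8.18 in a region 563 bases after its start, with MYC in 2 clone T and 1 clone TB libraries and no HA peak. CHD4, the remodelling ATPase of NuRD, had low folds of 6.33 and 6.11, and MYC was absent in clone T there but present in 2 clone TB libraries. IGF2BP3, a fetal-type RNA-binding protein, had folds of 6.19 and 8.18 in libraries 2 and 3, and MYC and HA peaks in all 3 clone TB libraries. Of these 4, then, TR4 and MYC both pointed to clone T at SOX6 and MBD2 only.

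Each list of erythroid genes had a few regions of one clone alone, at most 2 genes of a kind, beside the 1.86% (T) and 2.18% (TB) of all genes. The shared counts stand beside the 22.7% of all genes. Of 20 erythroid transcription factors, 5 had a shared region, NFE2 a T region and none a TB region. The NFE2 region had folds of 7.79 and 8.58 in clone T with no MYC peak in clone T, but MYC and HA peaks in all 3 clone TB libraries. Heme synthesis had 7 of 18 shared, UROD with a T region and UROD and SLC25A37 (the mitochondrial iron importer) with TB regions. Iron handling had 11 of 18 shared, NFS1 in T and PCBP1 in TB. Of 24 membrane and blood group genes, 2 had a shared region and EPB41, encoding protein 4.1, a T region. With 18 to 24 genes in a list, 1 gene is 4.17% to 5.56% of it. The T and TB counts therefore cannot be read as above or below the share of all genes. In erythropoietin and KIT signalling, 8 of 20 had a shared region. SOCS2 had a T region with folds of 8.77 and 12.9, and SOCS3 a TB region with 9.88, 8.47 and 5.93, both being feedback inhibitors of cytokine receptors. MYC peaks at SOCS3 were in 3 clone TB, 3 clone B and 0 clone T libraries, while SOCS2 had them in 2 libraries of each clone.

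UROD, the decarboxylase of heme synthesis, had adjacent regions of opposite kinds. The TB region, chr1:45012021-45012323, spanned the start, with TR4 folds of 6.29 and 7.46 in libraries 1 and 3 of clone TB. MYC had peaks there in 3 clone TB libraries and 0 clone T libraries. The T region, chr1:45012652-45012990, began 398 bases after the start, with TR4 folds of 8.999, 10.95 and 5.83 in clone T. MYC had peaks there in all 3 libraries of both clones. Besides UROD, 6 genes had regions of both kinds at their ends, namely CDC42EP4, CLUH, NUDT22, RAB40C, SPATA2 and ZBTB7B.

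Several housekeeping lists had shared regions at a larger share of genes than the 22.7% of all genes. Their T and TB genes, few in each list, stand beside 1.86% and 2.18% of all genes and are a description. Respiratory complex I had 16 of 37 genes shared, with NDUFS6 in T and NDUFA12, NDUFB11 and NDUFB6 in TB. Complexes II to V had 28 of 38 shared, with COX6C, SDHD and UQCRH in T and 0 in TB. Mitochondrial ribosome genes had 38 of 77 shared, with MRPL36, MRPS16, MRPS18B and MRPS22 in T and 0 in TB. NDUFS6 and MRPL36 were named from the same region, chr5:1801579-1801732, where MYC had peaks in 0 clone T and 2 clone TB libraries, against the TR4 call. MYC peaks were in 2 clone T and 0 clone TB libraries at MRPS18B and MRPS22, and in 1 and 0 at MRPS16. Of 46 large subunit genes of the cytosolic ribosome, 23 had shared regions, 0 T regions and 3 TB regions (RPL24, RPL27A and RPL36A). Of 32 small subunit genes, 15 had shared regions, RPS24 a T region and RPS12 and RPS15 TB regions. At RPL24, MYC had peaks in 2 clone T libraries and 0 clone TB libraries, also against the TR4 call.

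Beside 22.7% (shared), 1.86% (T) and 2.18% (TB) of all genes, splicing factors had 24 of 38 shared, 0 in T and SNRPC, SNRPD3 and U2AF2 in TB. Autophagy genes, which clear organelles from maturing red cells, had 9 of 26 shared, 0 in T and ATG7, BECN1 and GABARAPL2 in TB. The ATG7 region spanned bases up to the start, with TR4 folds of 12.9, 10.0 and 8.26 and MYC peaks in all 3 clone TB and 0 clone T libraries. BECN1 had folds of 12.3, 7.77 and 7.11, but MYC in 2 libraries of each clone. Cell cycle genes had 14 of 31 shared, CDK1 and RBL1 in T and CDKN2C and MCM4 in TB. MCM4, part of the replicative helicase, had TR4 folds of 12.9, 13.6 and 6.45 and MYC peaks in 3 clone TB, 2 clone B and 0 clone T libraries. Proteasome genes had 20 of 37 shared, PSMD9 in T and PSMA5 in TB, and nucleolar genes 16 of 30 with 0 of either kind. With 26 to 38 genes in a list, these few T and TB regions cannot be read as above or below the share of all genes.

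Markers of other cell types had few shared regions beside the 22.7% of all genes. Megakaryocyte, myeloid and lymphoid markers, 14 genes each, had 0 shared regions and 0 of one clone alone. Markers of neurons and liver, also 14 genes, had 1 shared region and, of T alone, GRIN1. One such gene in these lists is near the 1.86% of all genes, so it is no result about these markers. Olfactory receptor genes, which are silent in blood, had 0 of either kind at 392 genes. Peak lists carry no RNA levels, so the erythroid identity of the line was not checked beyond these counts.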

How the data were processed

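CUT&RUN libraries of 3 HUDEP-2 clones were compared through 1 deposited peak list per library. The submitters' processing notes name MACS2 2.1.4, Bowtie2, SAMtools, Picard and Trimmomatic, and build GRCh38, with no role or setting for any of them. The authors deposited for each peak a fold enrichment (a linear ratio), a −log10 q-value and a summit offset. The lowest −log10 q in the 6 deposited TR4 lists was 2.02.

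Merging, IgG removal and the region rule are stated in the report. Genes and promoters came from RefSeq GRCh38.p14 tables, which hold no exons, so introns and UTRs are not named. The scripts ran in Python 3.11.15 with pandas 2.3.3, NumPy 2.4.6, SciPy 1.17.1 and Matplotlib 3.10.9. Libraries were compared by exact permutation tests, and regions by Fisher exact tests with Benjamini-Hochberg adjustment, over regions with a peak in at least 4 of 12 libraries. On simulated peaks at 41773 regions, 0 of 200 changed regions were recovered and 100% of 2000. Regions were named by rank of mean fold percentile within each kind (the first 10 with peaks in all 3 libraries of each defining clone), or by TR4 and MYC together, and genes by membership of a list (up to 4 per list and kind). NR2C2, NR2C1, BCL11A, ZBTB7A, LIN28B and the globin genes were always looked up. The regions, lists and rules were chosen with earlier results of these data known. Alternatives were a −log10 q of 5, equal list lengths, other merging and library rules, other windows, the replicate block and each library left out.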

Additional observations from a re-analysis of the deposited data

Results flagged for a closer look

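The share of T regions minus the share of TB regions with a MYC peak was positive in every MYC library of clone T and negative in every MYC library of clone TB, with a difference of 64.6 percentage points between the clones. The log2 ratio of neighbouring TR4 regions also had one sign in every library of clone T and the opposite sign in every library of clone TB at 11 of the 190 pairs. The difference of T minus TB was 3.24 at NR2C2, 2.07 at SYF2, 1.86 at HNRNPUL2, 1.55 at STAP2, 1.22 at CILP2, 0.84 at TMEM143, 0.83 at CCDC200 and 0.82 at INAFM1. It was -2.20 at FIZ1, -1.91 at PRAG1 and -1.37 at ALKBH7. These items were picked because the libraries of the 2 clones had opposite signs. That rule alone fixes the exact permutation p at 0.1, the smallest that 3 libraries against 3 allow. The p therefore adds nothing to the values.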

How the results depend on the processing

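Of 349 values recomputed under an alternative, 294 were scored as unchanged, 43 as moved and 12 changed sign. Only counts had a limit of size. A difference between groups was scored as unchanged when it kept its sign, however far it moved. A named region was scored as moved when it had no TR4 peak left. The cause of each change below was not tested, beyond what its construction fixes. With each TR4 list cut to 5602 peaks, 3817 regions were shared, 563 were of T alone and 669 of TB alone. Requiring all 3 libraries gave 3185, 138 and 163, and allowing 1 library of the other clone gave 1704 of T and 2155 of TB. With 1 library left out, shared regions ranged from 3669 to 6203, T regions from 155 to 1303 and TB regions from 211 to 2074. With both libraries numbered 3 left out, added after seeing the data, there were 818 and 685.

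List length was lower in T by -195 peaks, but higher by 143 at a −log10 q of 5 and from -2764 to 1897 with 1 library left out. The Jaccard difference ranged from -0.0106 to 0.0445 with 1 library left out. The MYC difference at T regions, -3.37 points, was 15.1 at equal lengths, 11.6 at regions in 3 of 3 libraries and -14.6 to 16.3 with 1 library left out. The HA difference at TB regions, -8.15 points, was -16.5 to 2.79 with 1 library left out. Regions found in one clone by both antibodies numbered 234 for T and 153 for TB with 12 lists of 4621 peaks, an alternative added after seeing the data. With the 6 TR4 lists cut to 5602 peaks, the chromosomes without overlap were 4. Within 5 kb, 40 list genes had a T region and 36 a TB region. The region test called 0 in each setting and direction. Of 92 named regions of one clone alone, 22 had no TR4 peak left at equal lengths.

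As for pairing, deviations of same-numbered TR4 libraries correlated at 0.064, 0.057 and 0.152. Library 3 had the shortest list in every TR4, MYC and HA group. The labels state no pairing, so the main tests took none and their p-values take no account of a block by number. Each T library did correlate best with its own number, a hint from the data only. With the replicate block (exact sign flips), p was 1 for the list length difference of -195 peaks, 0.75 for gene ends (-1.39 points), 1 for MYC at T regions (-3.37 points) and 0.25 for MYC at TB regions (-68.0 points). It was 0.25 for HA at T regions (9.34 points) and TB regions (-8.15 points), and for the comparisons within a library (64.6 points for MYC, 17.5 for HA), the smallest that 3 pairs allow. Read depth is unknown, so a peak that a list lacks is not shown to be absent from the chromatin.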
